A study of Mus musculus with 18 samples.

Results

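Mechanically gated and acid-sensing channels were followed in cultures of mouse dorsal root ganglia (DRG), which house the cell bodies of somatosensory neurons. The members were chosen by gene symbol: the PIEZO channels Piezo1 and Piezo2, the acid-sensing ion channels Asic1, Asic2 and Asic3, and Stoml3, a stomatin-domain protein that tunes mechanosensitive currents. Of these 6 genes, 5 had a row among the 17198 genes of the table, and Stoml3 was not analysed here. All 5 were among the genes tested, and a filter on low values removed 0 genes.

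PIEZO proteins are large trimeric channels in the plasma membrane that open when the membrane is stretched or indented. PIEZO2 carries the fast mechanical currents of touch receptors and proprioceptors, whereas PIEZO1 is best known from endothelial cells, red cells and other non-neuronal cells. ASICs are trimeric, proton-gated sodium channels of the degenerin/ENaC family, built as homomers or heteromers of several subunits, and sensory neurons use them to detect tissue acidosis, with ASIC3 prominent in neurons that innervate muscle.

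RNA was compared between cultures from wild-type mice (WT) and from mice heterozygous for the tm1a allele of Dynlrb1 (HET), a knockout-first targeted allele. Dynlrb1 encodes a roadblock-type subunit of dynein, which carries cargo along microtubules from the axon to the cell body. Cultures were collected at 12, 24 and 48 h, with 3 biological replicates in each of 6 groups, or 18 samples in all. The age and sex of the mice, their number per culture and their strain are not given in the sources used here. Values are the authors' normalized counts, which allow a gene to be compared across samples, or the authors' FPKM (fragments scaled by transcript length and library size), which allow genes to be compared with each other.

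In the 9 HET cultures Dynlrb1 ranged from 2716 to 4087 normalized counts and in the 9 WT cultures from 5229 to 6674, so the values followed the labels. The neuronal label was met by all 7 pan-neuronal sensory markers (Tubb3, Rbfox3, Snap25, Scn9a, Isl1, Avil, Prph), whose summed level lay between 260698 and 361509 normalized counts in the 18 samples. Other cell types were present too: summed levels ran from 36251 to 52463 for 6 Schwann cell markers, from 4022 to 10662 for 5 endothelial markers and from 4375 to 22995 for 5 fibroblast markers. The sequencing depth of the samples is unknown, because the deposited columns had already been adjusted, and column totals were nearly equal at 41509705 to 41509874. In bulk RNA, fewer cells of a type and less RNA per cell cannot be told apart.

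Piezo2 was the most abundant of the 5 transcripts per unit length at every time in both genotypes by group mean. In WT at 12 h its FPKM was 67.6 ± 11.8 (SD, n = 3), which placed it above 93.9% of the genes in the table. Asic3 followed with an FPKM of 50.7 ± 8.89 (SD, n = 3), then Asic2 with 19.9 ± 0.338 (SD, n = 3), Asic1 with 9.44 ± 1.36 (SD, n = 3) and Piezo1 with 5.99 ± 0.999 (SD, n = 3). No neighbours in this order overlapped at 12 h in either genotype. By 48 h in WT the order had changed: the FPKM of Piezo2 was 36.5 ± 5.51 (SD, n = 3), of Asic2 28.9 ± 2.09 (SD, n = 3), of Asic3 24.1 ± 0.525 (SD, n = 3), of Piezo1 7.32 ± 1.33 (SD, n = 3) and of Asic1 6.33 ± 0.281 (SD, n = 3). There Piezo1, at 5.92 to 8.58 FPKM, and Asic1, with a highest value of 6.50 FPKM, overlapped and were not separated by their spread. In HET at 48 h Asic2 (18.9 to 39.9 FPKM) and Asic3 (24.6 to 29.7 FPKM) also overlapped. These orders rest on the gene lengths the authors used, which are not given in the sources used here.

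**Figure D1:**
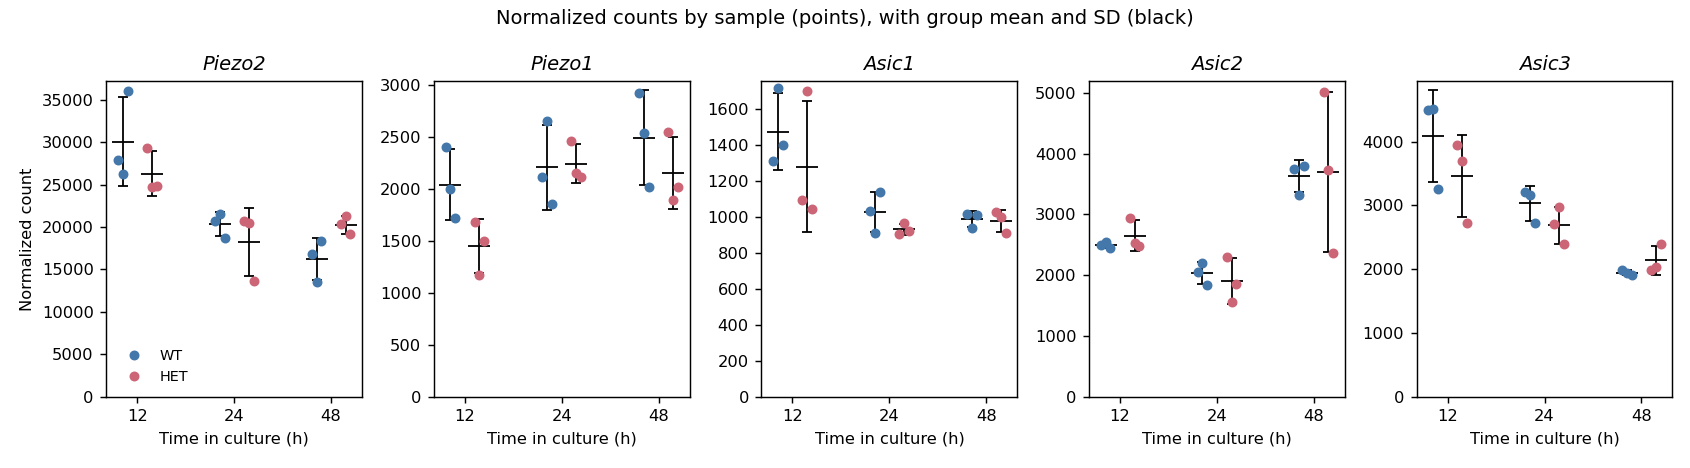
Normalized count (y axis, from 0, a separate scale for each gene) against time in culture in hours for the 5 measured channels. Points are single cultures (WT blue, HET red), black bars the group mean and SD; Piezo2 and Asic3 were lower at 48 h than at 12 h in every culture of both genotypes, while all WT values of Asic2 were higher at 48 h.

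Time in culture, more than genotype, separated the values of these channels. Between 12 and 48 h in WT, 4 of the 5 members passed the threshold, an adjusted p under 0.05 in limma with Benjamini-Hochberg adjustment over all 17198 genes. Of these, 3 fell (Piezo2, Asic1 and Asic3) and 1 rose (Asic2). The background was high: 47.1% of all genes passed in this comparison, 30% higher and 17.1% lower (54% at an unadjusted p under 0.05). The 2 times did not overlap in 55.3% of all genes in WT, and 12 and 24 h did not in 26.9%. The median log2 fold change of the 5 members was -0.57, against 0.11 for all genes. With the authors' plain adjusted columns, a second set of per-sample values that differ from the normalized counts in scaling, the median of all genes was 0.01 and the split between higher and lower genes was 52.6% higher in place of 63.6%. The same 3 members fell and Asic2 no longer passed there.

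Piezo2 (ENSMUSG00000041482) in WT cultures had 27931, 26217 and 36073 normalized counts at 12 h, 20697, 21503 and 18766 at 24 h, and 16861, 13532 and 18318 at 48 h. Each WT value at 24 or 48 h lay below each WT value at 12 h. Piezo2 changed from 12 to 48 h by -0.89 on the log2 scale (SE 0.15), leaving 54.1% of the 12 h level (limma adjusted p 2.97e-04), and that from 12 to 24 h was -0.55 (SE 0.15), which did not pass (limma adjusted p 0.0561). At 24 h in WT 0 of 5 members passed in limma, against 3.62% of all genes, and 3 had an unadjusted p under 0.05, against 21.4% of all genes. In the authors' deposited table, 2 of 5 passed at 24 h: Piezo2 (adjusted p 0.0193) and Asic1 (adjusted p 0.0396). The share of all genes that passed in the authors' own test is not given here, so this count has no background.

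HET cultures held less Piezo2 transcript at 24 h than at 12 h, the earliest time sampled. Their normalized counts were 29304, 24738 and 24802 at 12 h, 20702, 20470 and 13586 at 24 h, and 20344, 21316 and 19198 at 48 h. All HET values at 24 and 48 h lay below those at 12 h, and the 24 and 48 h groups overlapped. On the log2 scale Piezo2 changed by -0.55 (SE 0.15; limma adjusted p 0.0216) at 24 h and by -0.37 (SE 0.15; limma adjusted p 0.110) at 48 h, so that only the 24 h fall passed among these HET comparisons. The 24 h call was lost without HET 12 h replicate 1 (limma adjusted p 0.0783), without HET 12 h replicate 2 (0.0575) and without HET 24 h replicate 5 (0.118, with a log2 fold change of -0.35), and with quantile normalization (0.0524).

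Markers of the neurons known for Piezo2 were measured beside it. For low-threshold mechanoreceptors and proprioceptors, 9 of 9 markers (Ntrk2, Ntrk3, Necab2, Ret, Calb1, Pvalb, Nefh, Th, Cntnap2) were in the table, none near 0. Their summed level in WT was 128715 to 159030 normalized counts at 12 h, 111270 to 120789 at 24 h and 100056 to 111642 at 48 h. In HET it was 117383 to 149452, 98367 to 125101 and 103603 to 110060 in that order. Nefh (40301 to 104136 over the 18 samples) and Ret (31944 to 44369) made up the largest parts of this sum. Cntnap2, the next highest, had 4555 to 9746. Between 12 and 48 h in WT, 4 of the 9 fell and 0 rose past the threshold, against 17.1% lower and 30% higher among all genes. These were Ntrk3 (log2 fold change -1.58), the neurotrophin-3 receptor of proprioceptors, Pvalb (-1.16), Cntnap2 (-0.91) and Nefh (-0.84). The other 5 did not pass, and 3 of the 9 had a positive estimate, among them Calb1 (0.85, limma adjusted p 0.0902). The median log2 fold change of these 9 was -0.06, against 0.11 for all genes. With quantile normalization 1 of the 9 rose and 4 fell past the threshold. The summed pan-neuronal level in WT was 288866 to 302584 at 12 h, 260698 to 300374 at 24 h and 300703 to 335792 at 48 h. In HET this level was 313358 to 361509, 278752 to 296171 and 322009 to 335249 in that order. Of the 7 pan-neuronal markers, 2 rose and 3 fell past the threshold between 12 and 48 h in WT. Between 12 and 24 h in HET, 0 rose and 3 fell, against 13.1% higher and 5.76% lower among all genes. Satellite glia, which wrap the neurons, were followed by 4 markers (Fabp7, Kcnj10, Apoe, Glul). Their sum in WT was 28742 to 38594 at 12 h, 25213 to 27644 at 24 h and 20835 to 23323 at 48 h, and in HET 25471 to 39012, 19936 to 27605 and 20064 to 23122. By 48 h in WT 1 of these 4 rose and 2 fell. The part of such shifts in the results for Piezo2, Asic1 and Asic3 was not tested.

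Piezo1 (ENSMUSG00000014444) moved the other way, in HET. HET cultures held 1684, 1176 and 1501 normalized counts at 12 h, 2458, 2152 and 2116 at 24 h, and 2546, 1894 and 2019 at 48 h. Every HET value at 24 and 48 h lay above every HET value at 12 h. This was a 1.56-fold rise at 24 h (log2 fold change 0.64, SE 0.17; limma adjusted p 0.0176) and a 1.48-fold rise at 48 h (0.57, SE 0.17; limma adjusted p 0.0386). WT cultures started higher, at 2401, 2003 and 1723 at 12 h, and had 2119, 2656 and 1855 at 24 h and 2927, 2539 and 2021 at 48 h. The WT groups overlapped at all times, and neither WT change passed (log2 fold change 0.11 at 24 h, limma adjusted p 0.757; 0.29 at 48 h, limma adjusted p 0.185).

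These Piezo1 calls rested on few cultures. Without HET 12 h replicate 2, the lowest value, the limma adjusted p was 0.110 at 24 h and 0.171 at 48 h. Without HET 24 h replicate 1 it was 0.0681 at 24 h. At 48 h it was 0.0610 without HET 12 h replicate 5, and 0.185 and 0.0867 without HET 48 h replicates 1 and 2. The plain adjusted columns gave 0.0924, quantile normalization 0.0767 and a fit to the groups compared alone 0.108. In the GENCODE annotation of the same build, Piezo1 (GRCm38 chr8:122481698-122551329, minus strand) overlaps Ctu2, a tRNA-modification gene on the other strand. Ctu2 also rose from 12 to 48 h, with a log2 fold change of 0.56 in WT (limma adjusted p 0.00179) and 0.48 in HET (limma adjusted p 0.0229), from 490 ± 78.3 to 717 ± 22.9 normalized counts in WT (SD, n = 3). From 12 to 24 h in HET the log2 fold change of Ctu2 was 0.28 and did not pass (limma adjusted p 0.131), beside 0.64 for Piezo1. Whether the counting used strand is not given in the sources used here, so reads of the pair cannot be told apart.

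PIEZO1 is known from endothelial cells, and 5 of 5 endothelial markers (Pecam1, Cdh5, Cldn5, Kdr, Tek) were present. Their summed level was 8430 to 10662 normalized counts in WT and 5544 to 8919 in HET at 12 h. At 24 h it was 6755 to 10207 in WT and 5768 to 9223 in HET. At 48 h it was 4022 to 5645 in WT and 4720 to 6797 in HET. Of the 5, 3 fell in WT from 12 to 48 h (Cldn5, Cdh5 and Pecam1; 17.1% of all genes fell) and 1 in HET (Cldn5; 3.62% of all genes fell), and 0 rose. Of 5 fibroblast markers (Col1a1, Col1a2, Dcn, Lum, Pdgfra), 3 rose in WT by 48 h (30% of all genes rose) and 2 in HET (10.6% of all genes rose). Their sum in HET was 4826 to 7735 at 12 h, 5961 to 6539 at 24 h and 11014 to 20387 at 48 h. At 24 h in HET, 1 of the 5 fibroblast markers rose past the threshold (13.1% of all genes rose), and their median log2 fold change was 0.71. The summed level of 5 macrophage markers (Aif1, Cd68, Csf1r, Emr1, Ptprc) in HET was 942 to 1404 at 12 h, 1807 to 3089 at 24 h and 1128 to 1648 at 48 h, and in WT 989 to 1516, 1794 to 2219 and 1800 to 3087. Of the red cell markers, 2 of 4 were measured (Alas2 and Slc4a1), with sums from 12 to 1175 over all samples and the lowest in WT at 48 h. The part of these cells in the Piezo1 values was not tested.

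The ASIC genes diverged in culture. Between 12 and 48 h in WT, Asic3 and Asic1 fell, Asic3 the more, and Asic2 rose. The 250 bases before the annotated starts of Asic3, which fell the most of these ASIC genes, and Asic2, which rose, are shown. Each CG dinucleotide is in capitals, and the sequences are from RefSeq on GRCm38.p6, 5′ to 3′ on the gene's strand. Asic3 lies on chromosome 5 (window chr5:24413201-24413450, plus strand), and Asic2 has 2 starts on the minus strand of chromosome 11, 815493 bases apart (inner window chr11:81152904-81153153, outer window chr11:81968397-81968646).
Asic3: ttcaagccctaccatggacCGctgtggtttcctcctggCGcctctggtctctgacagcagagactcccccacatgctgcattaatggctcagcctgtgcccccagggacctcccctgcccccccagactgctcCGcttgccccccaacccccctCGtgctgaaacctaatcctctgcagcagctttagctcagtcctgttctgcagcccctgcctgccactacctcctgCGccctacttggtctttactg
Asic2, inner start: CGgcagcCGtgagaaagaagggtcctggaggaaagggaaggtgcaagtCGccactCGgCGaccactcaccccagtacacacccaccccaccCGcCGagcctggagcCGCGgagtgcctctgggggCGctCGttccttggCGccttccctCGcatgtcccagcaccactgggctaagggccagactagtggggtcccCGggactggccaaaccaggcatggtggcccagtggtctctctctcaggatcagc
Asic2, outer start: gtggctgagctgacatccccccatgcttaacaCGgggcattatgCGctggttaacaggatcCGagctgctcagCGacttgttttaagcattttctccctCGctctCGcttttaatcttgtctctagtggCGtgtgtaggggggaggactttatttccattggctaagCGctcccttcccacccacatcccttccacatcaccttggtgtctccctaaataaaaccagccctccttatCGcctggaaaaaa
The Asic3 window held 5 CG dinucleotides and the Asic2 windows 14 and 9, against a median of 6 over 32851 such windows. Of 6 motifs searched on both strands, the outer Asic2 window held the CCAAT box (letters CCAAT, found in 33.8% of all windows) and the Asic3 window held the E box (letters CANNTG, found in 66.2%). The GC box (letters GGGCGG, 32.7% of windows), the TATA box (letters TATAAA, 12.4%), the AP-1 site (letters TGANTCA, 6.75%) and the cAMP response element (letters TGACGTCA, 1.55%) had no match in the 3 windows. The table gives 1 value per gene, so transcripts from the 2 Asic2 starts were not told apart. The window of Asic1, which also fell in WT, is not printed and held 5 CG dinucleotides and 2 E box matches. Any part of these sequences in the changes was not tested.

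Asic3 (ENSMUSG00000038276) encodes the ASIC subunit with the greatest sensitivity to small acid shifts. In WT it had 4492, 4507 and 3259 normalized counts at 12 h, 3212, 3159 and 2718 at 24 h, and 1994, 1935 and 1911 at 48 h. The WT groups did not overlap at any pair of times, although the highest value at 24 h was close to the lowest at 12 h. The log2 fold change at 48 h was -1.05 (SE 0.14), leaving 48.2% of the 12 h level (limma adjusted p 5.70e-05), and at 24 h it was -0.42 (SE 0.14, limma adjusted p 0.1004). The WT call at 48 h held in all alternatives run.

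HET cultures had 3951, 3687 and 2731 normalized counts of Asic3 at 12 h, 2701, 2969 and 2393 at 24 h, and 1981, 2036 and 2396 at 48 h. The HET groups overlapped between 12 and 24 h but not between 12 and 48 h. Asic3 in HET changed on the log2 scale by -0.35 (SE 0.14; limma adjusted p 0.0973) at 24 h and by -0.68 (SE 0.14; limma adjusted p 0.0138) at 48 h, or 62.4% of the 12 h level. The 48 h call was lost without HET 12 h replicate 2 (limma adjusted p 0.0733), HET 48 h replicate 1 (0.0837) or HET 48 h replicate 2 (0.0670), and in a fit to the groups compared alone (0.0983). Without HET 12 h replicate 5, the lowest 12 h value, the 24 h change was -0.51 and passed (limma adjusted p 0.0217).

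Asic2 (ENSMUSG00000020704) encodes a subunit that is little sensitive to protons by itself and changes the gating of ASIC heteromers. Its WT values were 2488, 2538 and 2454 normalized counts at 12 h, 2053, 2198 and 1840 at 24 h, and 3754, 3322 and 3796 at 48 h. The WT groups did not overlap at any pair of times: 24 h was lowest and 48 h highest. Asic2 in WT changed on the log2 scale by -0.30 (SE 0.19; limma adjusted p 0.390) at 24 h and by 0.54 (SE 0.19; limma adjusted p 0.0291) at 48 h, a 1.45-fold rise. Leaving out any 1 of 5 of the 6 WT cultures compared (each replicate at 12 h, and 48 h replicates 1 and 3) ended this call, at limma adjusted p-values from 0.0576 to 0.0742, and so did the plain adjusted columns (0.0795). The log2 fold change stayed between 0.50 and 0.60 on leaving out 1 culture.

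In HET, Asic2 had 2946, 2528 and 2484 normalized counts at 12 h, 2299, 1555 and 1849 at 24 h, and 5008, 3722 and 2372 at 48 h. The 48 h cultures spread widely, and replicate 3 lay between the values at 24 h and those at 12 h. Asic2 in HET thus had a log2 fold change of 0.42 at 48 h (SE 0.19; limma adjusted p 0.141), and without HET 48 h replicate 3 it was 0.71 (limma adjusted p 0.00263). At 24 h it was -0.49 (SE 0.19, limma adjusted p 0.0804).

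Asic1 (ENSMUSG00000023017), a subunit of homomeric proton-gated channels of central and sensory neurons, was lower in FPKM than Asic2 and Asic3. WT cultures held 1309, 1716 and 1402 normalized counts at 12 h, 1031, 912 and 1137 at 24 h, and 1015, 938 and 1013 at 48 h. Values at 24 and 48 h were all below those at 12 h and overlapped each other. Asic1 in WT changed on the log2 scale by -0.52 (SE 0.15; limma adjusted p 0.0652) at 24 h and by -0.57 (SE 0.15; limma adjusted p 0.00574) at 48 h, leaving 67.4% of the 12 h level. HET cultures had 1096, 1702 and 1044 at 12 h, 906, 967 and 921 at 24 h, and 1026, 1001 and 910 at 48 h. In HET the groups at 12 h did not overlap those at 24 or 48 h, while replicate 2 stood far above the other cultures at 12 h. Neither HET change passed (log2 fold change -0.42 at 24 h, limma adjusted p 0.0600; -0.35 at 48 h, limma adjusted p 0.120). The 24 h change passed without HET 12 h replicate 1 (-0.52, limma adjusted p 0.0464) or without HET 12 h replicate 5 (-0.55, limma adjusted p 0.0287).

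In HET between 12 and 24 h, 2 of 5 members passed, Piezo2 lower and Piezo1 higher, against 18.9% of all genes (13.1% higher, 5.76% lower). Same-numbered HET cultures at these times deviated together, and with the replicate number as a block 4 of 5 passed, against 26.2% of all genes. The limma adjusted p with the block was 0.00956 for Piezo2, 0.00205 for Piezo1, 0.00236 for Asic2, 0.0114 for Asic3 and 0.0540 for Asic1. Between 12 and 48 h in HET, 2 of 5 passed, Asic3 lower and Piezo1 higher, against 14.2% of all genes (10.6% higher, 3.62% lower). All 5 members had an unadjusted p under 0.05 in both HET comparisons, against 33% of all genes at 24 h and 32% at 48 h. In HET, 38.4% of all genes did not overlap between 12 and 24 h and 29.7% did not between 12 and 48 h. The authors' deposited table had an adjusted p under 0.05 for 3 of 5 at 24 h and 2 of 5 at 48 h in HET. The share of all genes past 0.05 in the authors' own tests is not given here, so these 2 counts have no background.

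**Figure D2:**
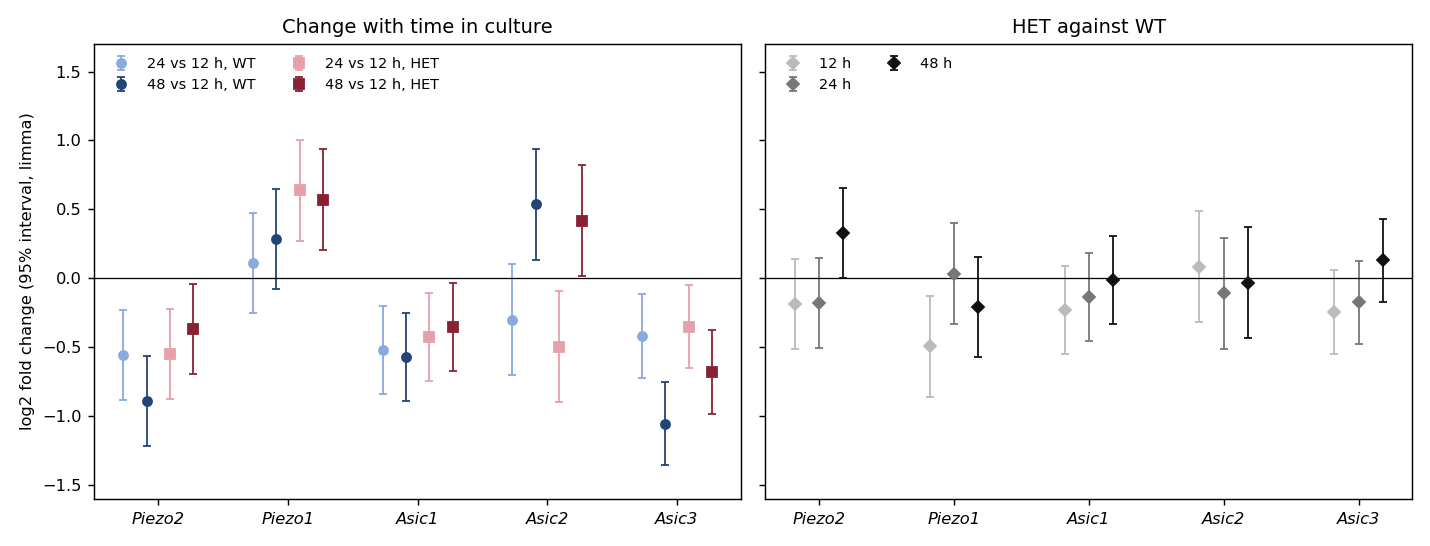
log2 fold change (y axis) of each channel with its 95% interval from limma: on the left between times in WT (blue circles) and HET (red squares), on the right HET against WT at each time (grey to black diamonds). The largest fall is that of Asic3 in WT at 48 h (-1.05), and the intervals of HET against WT cross 0 except for Piezo1 at 12 h and Piezo2 at 48 h, neither of which passed after adjustment.

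The make-up of the summed Asic1, Asic2 and Asic3 transcripts shifted from Asic3 to Asic2. Asic4, which was also in the table, is not part of these shares. Of the summed FPKM of Asic1, Asic2 and Asic3, Asic3 made up 58.6% to 66.4% in the WT cultures at 12 h and 60.6% to 63.4% at 24 h. At 48 h it made up only 40.7% ± 1.65 (SD, n = 3). Asic2 made up 23.2% to 28.4% at 12 h, 26.0% to 28.0% at 24 h and 46.9% to 50.04% at 48 h. Asic1 kept a share between 9.34% and 13.1% in all 9 WT cultures. The shift in WT thus came between 24 and 48 h, and the 48 h cultures lay apart from all earlier ones in both shares. In HET at 48 h the share of Asic2 was 56.2%, 48.4% and 34.7% in replicates 1, 2 and 3, and that of Asic3 was 34.6%, 41.2% and 54.6%. Replicate 3 therefore lay nearer the earlier HET cultures, whose Asic3 shares ran from 56.1% to 66.5%. The summed level of Asic1, Asic2 and Asic3 was 68.9 to 87.1 FPKM in WT at 12 h, 55.7 to 62.8 FPKM at 24 h and 56.5 to 61.1 FPKM at 48 h. These shares are a description of values already given and were not tested.

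**Figure D3:**
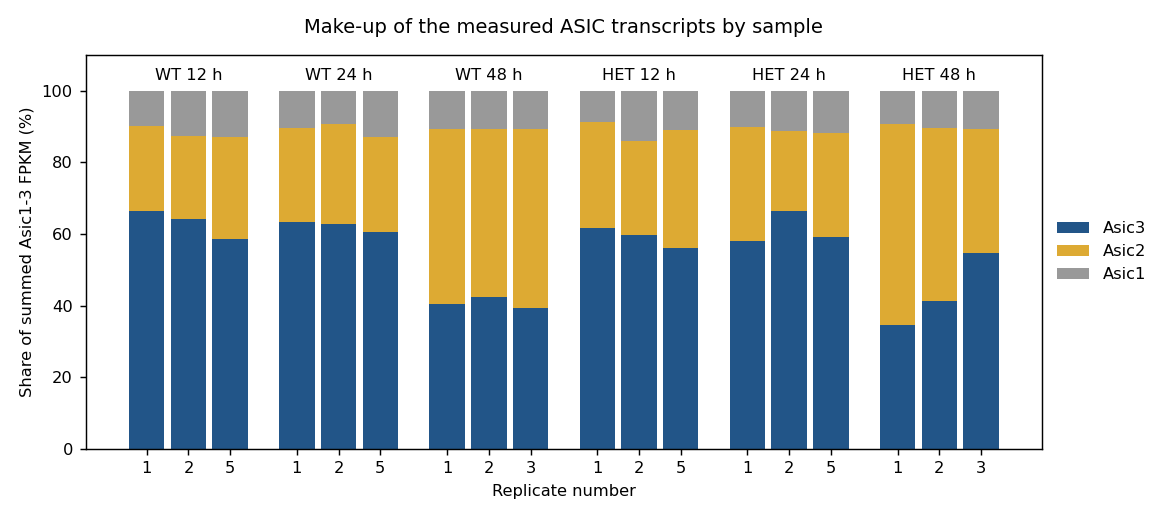
Share in percent (y axis) of the summed FPKM of Asic1, Asic2 and Asic3 that each gene made up, 1 bar per culture, grouped by genotype and time, with replicate numbers on the x axis. Asic3 (blue) takes over 56% of every bar at 12 and 24 h and 39.2 to 42.5% in WT at 48 h, while HET 48 h replicate 3 stands at 54.6%.

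The balance of the PIEZO channels also moved. The ratio of Piezo2 to Piezo1 FPKM was 8.91, 10.03 and 16.04 in the WT cultures at 12 h, 7.48, 6.20 and 7.75 at 24 h, and 4.41, 4.08 and 6.95 at 48 h. In HET it was 13.3, 16.1 and 12.7 at 12 h, 6.45, 7.29 and 4.92 at 24 h, and 6.12, 8.62 and 7.29 at 48 h. Every ratio at 12 h was above every later ratio.

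Genotype changed none of the 5 members past the threshold at any time. In the same fits Dynlrb1 itself, at 55.0% to 58.2% of its WT level in HET, passed only at 24 h (limma adjusted p 0.0655 at 12 h, 0.0390 at 24 h and 0.0501 at 48 h). At 12 h 0 of 5 passed in limma (0.00581% of all genes), with 1 (8.41% of all genes) at an unadjusted p under 0.05. At 24 h 0 of 5 passed (0.00581% of all genes), with 0 (1.15% of all genes) at an unadjusted p under 0.05. At 48 h 0 of 5 passed (0% of all genes), with 1 (22% of all genes) at an unadjusted p under 0.05. The authors' deposited table likewise had 0 of 5 at an adjusted p under 0.05 in each of these comparisons. The share of all genes that passed there is not given here. Dynlrb1 passed at each time in that table (edgeR adjusted p 1.48e-04 at 12 h, 1.25e-05 at 24 h and 1.12e-05 at 48 h). Same-numbered WT and HET cultures deviated together at 12 and 48 h, and with the replicate number as a block 0 of 5 members passed at either time, against 0.0988% of all genes at 12 h and 12.3% at 48 h.

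The nearest to a genotype difference were the PIEZO channels. Piezo1 at 12 h was lower in each HET culture than in each WT culture, with a log2 fold change of -0.49 (SE 0.17, 95% interval -0.86 to -0.13; limma unadjusted p 0.0111, adjusted p 0.577). Such a lack of overlap, with HET lower, was found for 8% of all genes at 12 h. Piezo2 at 48 h was higher in each HET culture than in each WT culture, with a log2 fold change of 0.33 (SE 0.15, 95% interval 0.0046 to 0.66; limma unadjusted p 0.0472, adjusted p 0.222). A lack of overlap with HET higher was found for 9.57% of all genes at 48 h. With the block the limma adjusted p was 0.139 for Piezo1 at 12 h and 0.124 for Piezo2 at 48 h.

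Averaged over the times, the log2 fold change between genotypes was -0.01 (95% interval -0.20 to 0.18) for Piezo2, -0.22 (-0.43 to -0.01) for Piezo1, -0.13 (-0.31 to 0.06) for Asic1, -0.02 (-0.25 to 0.21) for Asic2 and -0.10 (-0.27 to 0.08) for Asic3. None passed in limma (0 of 5, against 0.0174% of all genes, with 1 at an unadjusted p under 0.05, against 13.5%), and the adjusted p-values ran from 0.349 for Piezo1 to 0.969 for Piezo2. A two-sided exact permutation test that exchanged genotype within times gave p = 0.0775 for Piezo1, 0.182 for Asic1, 0.326 for Asic3, 0.886 for Asic2 and 0.929 for Piezo2. For Dynlrb1 the same exact test gave p = 0.00025, the smallest p that the 8000 arrangements allow. The intervals of the averaged difference reach at most 0.43 on the log2 scale in either direction for these channels. The exact test and the averaged fit both treated the cultures as unpaired. Same-numbered cultures deviated together between genotypes at some of the times, and between the earlier times in HET. The exact p-values and the averaged intervals do not take this pairing into account.

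The change from 12 to 48 h was also compared between genotypes. The fall of Piezo2 was smaller in HET by 0.52 on the log2 scale (SE 0.22, 95% interval 0.05 to 0.98; limma unadjusted p 0.0307, adjusted p 0.548) and that of Asic3 by 0.37 (SE 0.20; limma adjusted p 0.570). The difference was 0.28 for Piezo1 (SE 0.24; limma adjusted p 0.688), 0.22 for Asic1 (SE 0.21; limma adjusted p 0.728) and -0.12 for Asic2 (SE 0.27; limma adjusted p 0.897). In this test 0 of 5 members and 0% of all genes passed in limma, with 1 member at an unadjusted p under 0.05 (8.92% of all genes), so a call in 1 genotype only, such as that of Piezo1 in HET, was not shown to differ between genotypes. Nociceptor markers were measured too: for 5 of 5 (Calca, Tac1, Mrgprd, P2rx3, Trpv1) the sum at 48 h was 44973 to 53868 normalized counts in WT. In HET at 48 h it was 52830, 58711 and 88157 in replicates 1, 2 and 3, so that the highest value came from replicate 3 alone. At 12 h the nociceptor sum was 67048 to 85000 in WT and 80029 to 108036 in HET, and 3 of the 5 fell from 12 to 48 h in each genotype (17.1% of all genes fell in WT, 3.62% in HET). Their part in the ASIC and Piezo2 values was not tested.

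Likeness over the 18 samples was measured as the Pearson correlation of log2 values among 12477 genes with a mean of at least 100 normalized counts. These values share libraries, a strong time course and the authors' adjustment, and are given as a description. Among the genes closest to Piezo2 were Plekha6 (r = 0.95) and Astn1 (r = 0.95). For Asic3 they were Syt2 (r = 0.99), a synaptotagmin, Vwa7 (r = 0.99) and Syne4 (r = 0.98). For Asic2 they were Jakmip3 (r = 0.97), Ube2ql1 (r = 0.95) and Mblac2 (r = 0.95). For Piezo1 they were Enc1 (r = 0.96), Smad7 (r = 0.94), an inhibitor of TGF-beta signalling, and AI506816 (r = 0.93). For Asic1 they were Ldb3 (r = 0.86), Stk39 (r = 0.85) and Kndc1 (r = 0.84), lower than for the other members. Among the members themselves, Piezo2 and Asic3 were the most alike (r = 0.71), followed by Asic1 with Asic3 (r = 0.66) and Piezo2 with Asic1 (r = 0.63), while Piezo1 with Asic1 had the lowest value (r = -0.55).

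Other channels known or proposed to respond to stretch changed in both directions in WT. Of 14 (14 measured), 3 rose and 3 fell between 12 and 48 h, near the share of all genes that passed (47.1%; 30% higher and 17.1% lower). Trpa1, an irritant-gated channel of nociceptors, fell from 3337 ± 781 to 1228 ± 396 normalized counts (SD, n = 3; log2 fold change -1.46). Kcnk4, the stretch-activated potassium channel TRAAK, fell by 1.19 on the log2 scale from 366 ± 83.3 normalized counts (SD, n = 3), and Tmem63a, an osmotically gated cation channel, fell by 0.49. Tmem120a (log2 fold change 0.57), Kcnk10 (0.47), the TREK-2 potassium channel, and Tmem87a (0.40) rose. The median log2 fold change of the list was -0.04, against 0.11 for all genes. In HET 0 of 14 passed at 48 h in limma, against 14.2% of all genes. Kcnk4 fell past the threshold there on the plain adjusted columns (limma adjusted p 0.0431) and with quantile normalization (0.0377).

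Among 12 regulators or binding partners of PIEZO channels and ASICs (12 measured), 3 rose and 3 fell in WT by 48 h, again near the 47.1% of all genes. Stom, the stomatin that modulates ASIC gating and is a relative of Stoml3, fell from 4935 ± 973 to 2175 ± 545 normalized counts (SD, n = 3; log2 fold change -1.19, limma adjusted p 0.00787). Lin7b, a PDZ protein that binds ASIC3, fell by 1.40 on the log2 scale (limma adjusted p 2.64e-04), in parallel with Asic3. Tmem150c, a membrane protein tied to slowly adapting mechanical currents, fell by 0.54. Pick1, a PDZ protein that binds ASIC1 and ASIC2, rose by a log2 fold change of 0.41, S100a10, an annexin A2 partner that aids channel trafficking, by 0.27 and Mtmr2, a lipid phosphatase that modulates PIEZO2, by 0.19. In HET, 0 rose and 2 fell at 48 h, Lin7b (-0.97, limma adjusted p 0.0200) and Tmem150c (-0.32, limma adjusted p 0.0349), against 3.62% of all genes lower. Each lost its HET call in 4 of 6 fits without 1 culture (highest limma adjusted p 0.113 and 0.167) and in the fit to the groups compared alone (0.101 and 0.158). The median of the list in WT was -0.11.

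Among 15 other acid sensors and degenerin/ENaC subunits (14 measured; Asic5 was not analysed here), 2 rose and 2 fell in WT by 48 h, against 30% of all genes higher and 17.1% lower, and the median log2 fold change was -0.10. Tmem206, the older symbol of the proton-activated chloride channel Pacc1, rose from 765 ± 54.7 to 1336 ± 241 normalized counts (SD, n = 3; log2 fold change 0.79, limma adjusted p 3.71e-04) and Kcnk3, the acid-inhibited potassium channel TASK-1, by 0.48 on the log2 scale. The proton-sensing receptor Gpr4 fell by 1.27 and the proton channel Otop1 by 1.08, the latter from 45.9 ± 11.8 normalized counts (SD, n = 3). In HET only Tmem206 passed of the 14 in limma (log2 fold change 0.51, adjusted p 0.0288), against 14.2% of all genes. That call was lost in 3 of 6 fits without 1 culture (highest limma adjusted p 0.140), on the plain adjusted columns (0.0686), with quantile normalization (0.0814) and in the fit to the groups compared alone (0.111). Of these 16 named genes, 5 lost their WT call when 1 culture was left out: S100a10 and Mtmr2 on leaving out any of the 6 cultures (highest limma adjusted p 0.151 and 0.0942), Kcnk3 in 5 of 6 cases (0.118), Tmem63a in 4 of 6 (0.144) and Otop1 in 2 of 6 (0.0727). Kcnk3, S100a10 and Mtmr2 did not pass on the plain adjusted columns (limma adjusted p 0.107, 0.156 and 0.262), nor did Kcnk10, Kcnk3 and Mtmr2 with quantile normalization (0.0588, 0.187 and 0.0629). Mtmr2 did not pass in the fit to the groups compared alone either (0.0743).

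**Figure D4:**
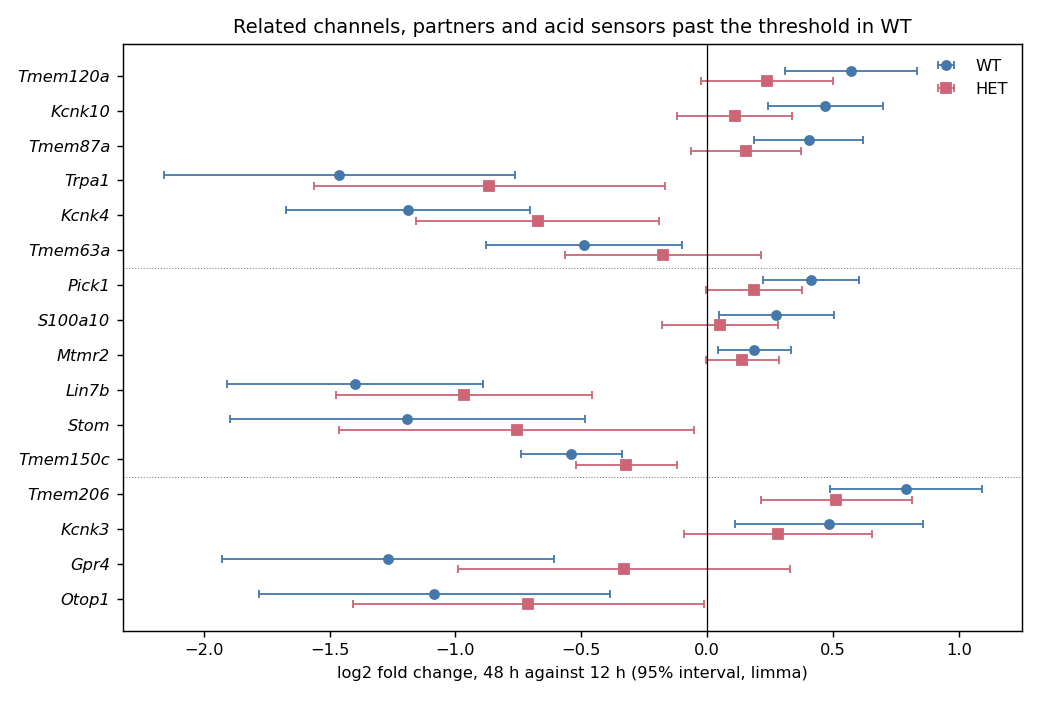
log2 fold change from 12 to 48 h (x axis) with its 95% interval from limma in WT (blue circles) and HET (red squares) for the 16 related genes past the threshold in WT; dotted lines part the stretch-sensitive channels (top), the binding partners (middle) and the acid sensors (bottom). Tmem206 rises most (0.79 in WT) and Trpa1 falls most (-1.46 in WT), and differences between the genotypes were not past the threshold for any gene.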

How the data were processed

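RNA of 18 DRG cultures had been sequenced; sample titles gave the groups and replicate numbers. Per the submitters' processing notes, CASAVA 1.8.2, edgeR and the build mm10 were used; aligner, counting method, annotation and gene filter are not given in the sources used here. Per the file headers, the authors deposited normalized counts, a signal with 0 whole values, a second per-sample signal (plain adjusted columns), FPKM, and log2 fold changes with p-values, which were read for comparison. The logs of the plain adjusted columns spanned 15 of 17 possible dimensions, so the deposited signal lacks 2 directions of variation between samples and the tests assume too many residual degrees of freedom.

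All 17198 genes (minimum mean 1) were analysed as log2(normalized count + 1) with limma 3.58.1 in R 4.3.3, using 1 coefficient per group and a trended prior (degrees of freedom: 12 residual, 4.97 prior). Benjamini-Hochberg adjustment was applied within each of 9 comparisons, and an adjusted p under 0.05 counted as past the threshold. The added 1 shrinks the fold changes of low genes. The labels do not say whether biological replicates were separate animals or cultures, so p-values measure the spread between these samples only. The code was tested on simulated data. Sequencing depth is unknown, and no counting interval was computed. Members and lists were chosen with earlier results of these data known. Named beside the members were up to 3 higher and 3 lower genes of each related list with the largest change among those past the threshold from 12 to 48 h in WT, and the 3 genes most correlated with each member. Some items that these rules and lists hold are not reported here. Ctu2 was named after its overlap with Piezo1 had been seen. Alternatives were another pseudocount, minimum mean, set of columns, quantile normalization, a replicate block, fewer groups and leaving out each culture.

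Replicate numbers in the titles were taken to pair cultures where all 3 same-numbered pairs had deviations from their group means that correlated above 0.1. This held for WT with HET at 12 h (r 0.32, 0.18 and 0.36) and at 48 h (0.44, 0.48 and 0.54), and for 24 with 12 h in HET (0.58, 0.28 and 0.38). It failed at 24 h between genotypes (lowest r -0.21) and for 24 with 12 h in WT (lowest r -0.08), and 48 with 12 h shared only 2 numbers.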

Additional observations from a re-analysis of the deposited data

Results flagged for a closer look

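The sign of the estimated difference between HET and WT turned over time for every member but Asic1. For Piezo1 the log2 fold change was -0.49, 0.03 and -0.21 at 12, 24 and 48 h, and for Asic2 0.08, -0.11 and -0.03. Only for Piezo2 and Asic3 did all 3 HET cultures lie on 1 side of the WT mean at 1 time and on the other side at another. The share of all genes with such a turn is not given here. For Piezo2 the genotypes overlapped at 12 h (limma interval of the log2 fold change -0.51 to 0.14). They did not at 48 h (0.0046 to 0.66), where the difference did not pass (limma adjusted p 0.222). For Asic3 they overlapped at 12 h (-0.55 to 0.06), 24 h (-0.48 to 0.13) and 48 h (-0.17 to 0.43). All 3 HET cultures lay below the WT mean of Piezo2 at 12 h and all 3 above it at 48 h, and the difference between genotypes moved by 0.52 on the log2 scale; when tested, this shift did not pass (limma adjusted p 0.548). For Asic3 all 3 HET cultures lay below the WT mean at 12 and 24 h and above it at 48 h. The shift was 0.37 from 12 to 48 h (limma adjusted p 0.570) and 0.30 from 24 to 48 h, the latter not tested. The 12 to 48 h and 24 to 48 h shifts of Asic3 share the 48 h cultures.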

How the results depend on the processing

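The fall of Piezo2, Asic1 and Asic3 from 12 to 48 h in WT kept its direction and its side of the threshold in every alternative run. The cause of the changes below was not tested. A replicate block put 17 genes past the threshold at 12 h, 0 at 24 h, 2120 at 48 h and 553 for the average between genotypes, 1621 for 24 with 12 h in WT and 5301 for 48 with 12 h in HET. The members past it with the block numbered 3 at 24 h in WT, 4 at 24 h in HET and 4 at 48 h in HET, and the difference in time course of Asic2 turned to 0.22. The pairing rule given above held only for WT with HET at 12 and 48 h and for 24 with 12 h in HET. The other block results are therefore not those of established pairs. With this block Mtmr2, S100a10 and Tmem63a did not pass for 48 with 12 h in WT (limma adjusted p 0.0960, 0.0707 and 0.0941), and Kcnk4, Trpa1, Tmem120a and Stom passed in HET. Of the 18 cultures, 15 correlated best with their own number. On the plain adjusted columns, 2 genes passed between genotypes at 12 h and 1 at 48 h, and 1 member for 48 with 12 h in HET; the signs of Asic1 at 48 h (0.0122), of Piezo2 averaged (0.0034) and of S100a10 in HET at 48 h (-0.0475) turned. After quantile normalization 276 genes passed at 48 h between genotypes, 1596 genes and 1 member passed for 48 with 12 h in HET, and values were 0.0824 for Asic1 at 48 h and -0.0544 for Kcnk10 in HET. Fits to only the groups compared gave 0 genes at 24 h between genotypes and 0 genes and 0 members for 48 with 12 h in HET, and 1 member at 24 h in WT. No member's call changed with a pseudocount of 0.1 or a minimum mean of 5.

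Leaving out 1 culture gave 0 to 2 genes between genotypes at 12 h, 0 to 1 at 24 h and 0 to 931 at 48 h, 0 to 197 for 24 with 12 h in WT, 1141 to 2915 for 24 with 12 h in HET and 0 to 4886 for 48 with 12 h in HET. Members past the threshold numbered 0 to 4 at 24 h and 0 to 3 at 48 h in HET. Signs turned within these ranges between genotypes: -0.0524 to 0.0366 for Asic1 at 48 h, -0.26 to 0.0257 and -0.28 to 0.26 for Asic2 at 24 and 48 h, -0.10 to 0.0768 for Asic2 averaged, -0.0849 to 0.17 for Piezo1 at 24 h, -0.28 to 0.0210 for Piezo2 at 24 h and -0.0527 to 0.0558 averaged. They also turned for Piezo1 at 24 h in WT (-0.0296 to 0.23), Dynlrb1 at 48 h in WT (-0.14 to 0.0211), S100a10 at 48 h in HET (-0.0324 to 0.0983) and the time course difference of Asic2 (-0.37 to 0.17) and Dynlrb1 (-0.12 to 0.0430).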
